A study of Homo sapiens with 6 samples.

Results

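YAP1, its paralogue WWTR1 (which encodes the protein TAZ), the DNA-binding partners TEAD1 and TEAD4, and 6 genes read as their targets or regulators (CCN1, CCN2, ANKRD1, AJUBA, AMOTL2 and LATS2) were followed in A549 cells. The 10 genes were given by symbol and matched to the files through their Entrez gene numbers. All 10 were listed in each library, out of 20824 genes listed in any, and all 10 passed the filter on low counts, out of 14812 that did. CCN1 and CCN2 are also known as CYR61 and CTGF.

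Polyadenylated RNA of A549 cells, a human lung adenocarcinoma line, was sequenced from 3 libraries labelled C19orf12 knockdown (sh-C19orf12) and 3 labelled sh-scramble, the control with a scrambled hairpin. Both groups thus carried an shRNA in the same line. C19orf12 encodes a membrane protein of mitochondria and the endoplasmic reticulum, and the comparison asks which genes differ when it is lowered. The knockdown titles share a number before the replicate number, which the labels do not explain. Nor do the labels say whether the cells were clones or pools, or whether replicates were separate cultures, so a p-value here reflects only library-to-library spread, which may be technical.

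YAP and TAZ are transcriptional coactivators at the end of the Hippo pathway. Active Hippo kinases (MST1 and MST2, then LATS1 and LATS2) phosphorylate them, which keeps them in the cytoplasm. In the nucleus they bind TEAD factors, which recognise the letters GGAATG, often together with AP-1, and raise genes for secreted matricellular proteins and for their own inhibitors.

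Depth was even, at 10229890 to 10647587 estimated counts per library. C19orf12 itself had 24.2, 26.4 and 25.2 CPM (counts scaled to library size with TMM factors) in knockdown libraries, against 42.5, 41.1 and 63.3 CPM in scramble libraries. The knockdown mean was 51.6% of the scramble mean (edgeR log2 fold change -0.95, adjusted p = 0.0150). Without scramble replicate 3 it was 60.4% (-0.73, adjusted p = 3.17e-08). Leaving out knockdown replicate 1, 2 or 3 instead ended the call (adjusted p = 0.0908, 0.0755 and 0.0879). Scramble replicate 3 stood apart, with a correlation of log2 CPM of 0.952 and 0.953 with the other scramble libraries, which correlated at 0.991 with each other. With tested genes split into 10 bins by GC content, its median log2 difference from those libraries was -1.03 in the lowest bin and 0.51 in the highest. Fold changes below are therefore given with and without that library. Of 9 genes typical of A549 cells 8 had at least 1 CPM in every library, with EPCAM down to 0.775 CPM. Of these genes KRT8 averaged 4615 CPM in knockdown and 1331 CPM in scramble libraries (edgeR log2 fold change 1.79, adjusted p = 0.000246). KRT18 averaged 5504 and 2222 CPM (1.31, adjusted p = 0.00135). The others did not pass (lowest adjusted p 0.0590, for EPCAM). CDKN2A and CDKN2B, which the line has lost, were listed in no library. MTAP, a neighbour often lost with them, had 6.7 to 8.49 CPM in knockdown and 8.13 to 10.8 CPM in scramble libraries. Of 6 fibroblast markers 5 were under 1 CPM throughout. COL1A1, the exception, averaged 24.4 ± 1.12 CPM in knockdown and 41.1 ± 5.82 CPM in scramble libraries (SD, n = 3 each), and the 6 markers summed to 24.1 to 26.5 and 36.7 to 47.8 CPM. Of the leukocyte and endothelial markers, CD3E was listed in no library, and VWF and CDH5 were near 0, but CD68 averaged 50.6 CPM in knockdown and 41.0 CPM in scramble libraries, PECAM1 3.39 and 3.32 CPM, and PTPRC 1.26 and 1.12 CPM. The part of cells with these markers in the results was not tested.

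The letters that TEAD factors recognise stand in the upstream sequence of some members. The 250 bases before the gene start are shown for 3 of them because they differ in these letters and in what the RNA did: CCN2 and AJUBA were lower in knockdown cells, and ANKRD1 was not called. Sequences are from RefSeq on GRCh38.p14, all on the minus strand and printed 5′ to 3′, at chr6:131951373-131951622 for CCN2, chr10:90921088-90921337 for ANKRD1 and chr14:22982552-22982801 for AJUBA. Capitals mark GGAATG on either strand (CATTCC on the other), and the last base printed lies just before the start.
CCN2: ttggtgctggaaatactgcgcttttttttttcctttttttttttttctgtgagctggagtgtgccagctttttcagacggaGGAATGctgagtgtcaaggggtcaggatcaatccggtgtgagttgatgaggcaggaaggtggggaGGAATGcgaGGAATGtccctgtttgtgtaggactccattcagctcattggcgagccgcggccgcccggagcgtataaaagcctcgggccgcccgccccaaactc
ANKRD1: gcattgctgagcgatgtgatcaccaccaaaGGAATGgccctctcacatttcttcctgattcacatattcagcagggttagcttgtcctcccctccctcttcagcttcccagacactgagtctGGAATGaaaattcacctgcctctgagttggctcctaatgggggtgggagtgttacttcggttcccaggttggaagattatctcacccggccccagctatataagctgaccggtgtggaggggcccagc
AJUBA: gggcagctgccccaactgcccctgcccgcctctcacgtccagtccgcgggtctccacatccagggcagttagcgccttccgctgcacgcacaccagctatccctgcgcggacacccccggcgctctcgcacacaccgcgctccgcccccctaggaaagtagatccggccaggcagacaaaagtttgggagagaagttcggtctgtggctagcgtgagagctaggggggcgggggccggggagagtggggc
CCN2 held 3 matches, which began 169, 104 and 95 bases before the start, and ANKRD1 held 2, at 220 and 128 bases. The AJUBA window held none, while a further AJUBA start on chromosome 14 had 1 match at 59 bases. YAP1 had 1 match at 162 bases, AMOTL2 had 1 in 1 of its 2 windows, and the windows of WWTR1 and LATS2 had none. Among 35116 windows of this length in the table, 11.9% held at least 1 match, 0.94% at least 2 and 0.0826% at least 3. No window was matched for CCN1, TEAD1 and TEAD4. A match describes letters only, and binding was not measured.

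CCN1, CCN2 and AJUBA were lower in knockdown cells, at 44.5% (AJUBA) and 50.5% (CCN1 and CCN2) of the scramble mean, and these were the members called by edgeR with all 6 libraries. That is 3 of 10 lower and 0 higher, where 5.64% of all 14812 tested genes were called lower, 5.89% higher and 11.5% in either direction. The members were chosen with earlier results of these data known, so these shares do not test the set. DESeq2 and limma-voom, run on the same libraries, also called 3 members each, where they called 1889 and 1659 of all 14812 tested genes. Median log2 fold changes were -0.20 over the 10 members and 0.02 over all tested genes. The coactivators YAP1 and WWTR1 were lower than in scramble replicates 1 and 2 but not than in scramble replicate 3. They passed only when that library was left out or GC content was corrected for by the transcript nearest in length. With all 6 libraries and GC averaged over matched transcripts, neither passed (adjusted p = 0.221 and 0.701). In cultures read as bulk RNA, fewer cells expressing a gene and less RNA per cell cannot be told apart.

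**Figure D1:**
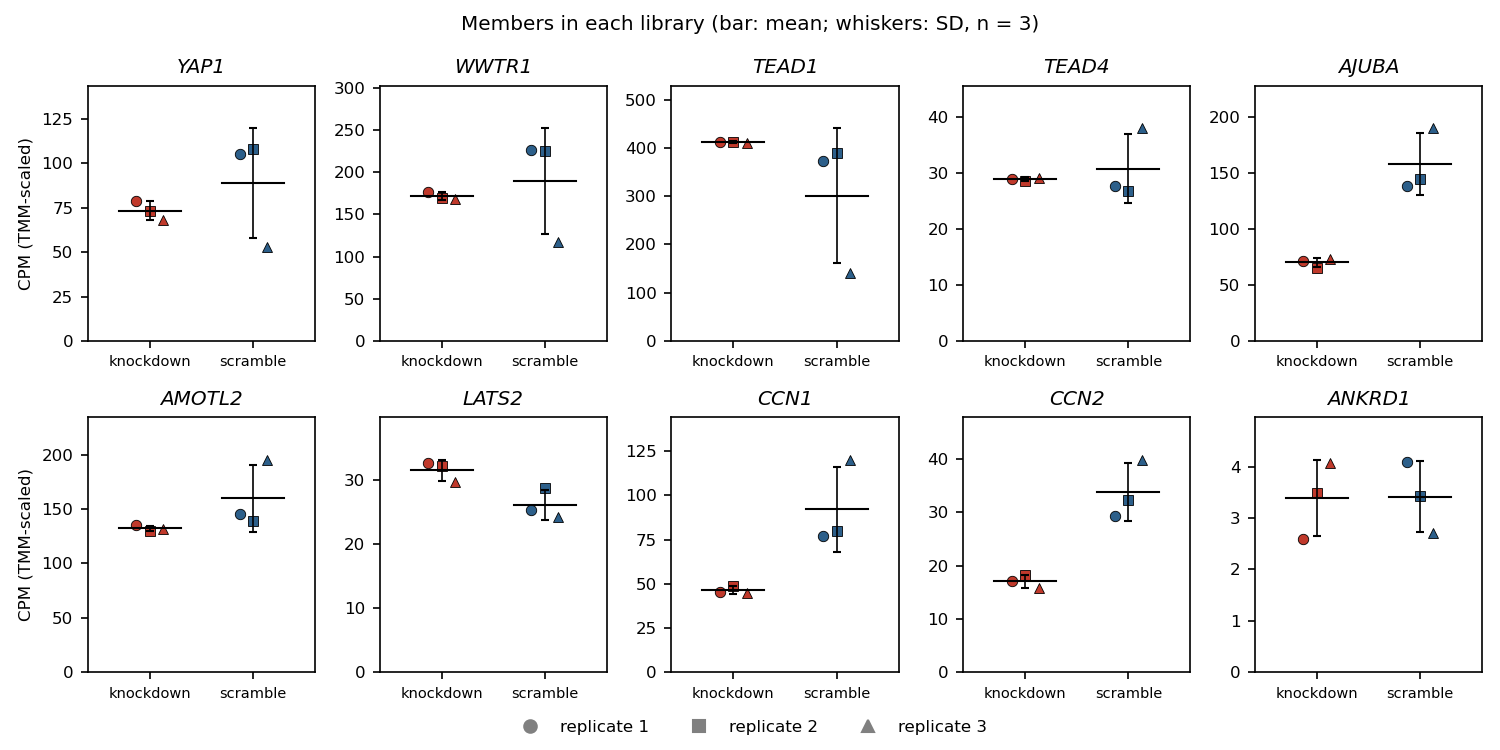
CPM (y axis, from 0) of the 10 members in each knockdown library (left, red) and scramble library (right, blue), with the mean as a bar and the SD as whiskers (n = 3), and replicates by symbol. CCN1, CCN2 and AJUBA lie lower in all 3 knockdown libraries, while scramble replicate 3 lies far under the other libraries in YAP1, WWTR1 and TEAD1.

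The secreted matricellular proteins CCN1 and CCN2 are the targets most often read as a measure of YAP activity. CCN1 had 45.5, 48.9 and 45.0 CPM in knockdown libraries, against 77.0, 79.7 and 120 CPM in scramble libraries. The groups did not overlap, and the highest value was in scramble replicate 3. The mean was 46.5 ± 2.14 CPM in knockdown and 92.1 ± 23.8 CPM in scramble libraries (SD, n = 3 each), a log2 fold change of -0.99 (SE 0.20, adjusted p = 0.0125). With scramble replicate 3 set aside it came to -0.75 (adjusted p = 6.09e-10). Setting aside knockdown replicate 1, 2 or 3 instead ended the call, with an adjusted p of 0.0762, 0.0644 and 0.0819 at log2 fold changes of -0.97, -1.03 and -0.96.

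CCN2 had 17.1, 18.3 and 15.8 CPM in knockdown libraries and 29.3, 32.3 and 39.8 CPM in scramble libraries. Again all knockdown libraries lay lower, and scramble replicate 3 was the highest. Its log2 fold change was -0.99 (SE 0.18, adjusted p = 0.00715), and -0.85 (adjusted p = 6.99e-08) without scramble replicate 3. Leaving out knockdown replicate 1 or 3 ended the call (adjusted p = 0.0533 and 0.0630), and leaving out knockdown replicate 2 did not (0.0408). The ratio of CCN1 to CCN2 in FPKM (fragments scaled for transcript length and library depth) was 2.73, 2.75 and 2.93 in knockdown libraries and 2.71, 2.54 and 3.09 in scramble libraries, which overlap (exact permutation p = 0.8, 2-sided).

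Among the other members of the CCN family, CCN5 (also WISP2), which lacks the C-terminal domain of its relatives, moved the other way. It rose to 167 ± 3.27 CPM in knockdown libraries, against 56.7 ± 11.6 CPM in scramble libraries (SD, n = 3 each; log2 fold change 1.56, SE 0.18, adjusted p = 0.000696, and 1.74 without scramble replicate 3). Only 3 of the 6 family members passed the filter on low counts, so CCN1 and CCN2 fell, CCN5 rose, and CCN3, CCN4 and CCN6 were too low to test.

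ANKRD1, a nuclear and sarcomeric ankyrin repeat protein and a further textbook target of YAP, was scarce. It had 2.60, 3.49 and 4.07 CPM in knockdown libraries and 4.09, 3.43 and 2.71 CPM in scramble libraries, from 26 to 41 and 28 to 44 estimated counts. The groups overlapped almost fully, and the log2 fold change, -0.01, did not pass (SE 0.26, adjusted p = 0.987). Leaving out scramble replicate 3 gave -0.15 (SE 0.24, adjusted p = 0.651), where the SE of the other members was 0.03 to 0.09.

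AJUBA, a LIM domain protein of cell junctions that binds LATS kinases and restrains them, had the largest log2 fold change of the 10 in all 6 libraries. It measured 71.9, 65.6 and 73.4 CPM in knockdown libraries, against 139, 145 and 190 CPM in scramble libraries. The groups were far apart. The knockdown mean was 70.3 ± 4.14 CPM and the scramble mean 158 ± 28.2 CPM (SD, n = 3 each), with a log2 fold change of -1.17 (SE 0.17, adjusted p = 0.00252). It was -1.01 (adjusted p = 4.28e-13) without scramble replicate 3, and the call held with each other library left out as well (highest adjusted p 0.0282).

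AJUBA was also lower relative to its closest relatives. It made up 34.8%, 33.4% and 34.4% of the summed FPKM of AJUBA, LIMD1 and WTIP in knockdown libraries, against 46.3%, 46.1% and 45.7% in scramble libraries (exact permutation p = 0.1, 2-sided). This share is taken inside each library, and scramble replicate 3 did not stand apart in it. WTIP fell too, to 8.41 ± 1.03 CPM in knockdown libraries, against 14.8 ± 3.96 CPM in scramble libraries (adjusted p = 0.0445). That call was lost without scramble replicate 2 (0.0574) and without knockdown replicate 1, 2 or 3 (0.192, 0.168 and 0.109). LIMD1 was at 184 ± 7.47 CPM in knockdown and 242 ± 38.6 CPM in scramble libraries, which did not pass (adjusted p = 0.155). Set against scramble replicates 1 and 2 alone, both were lower, WTIP at -0.58 (adjusted p = 0.00135) and LIMD1 at -0.26 (3e-05).

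**Figure D2:**
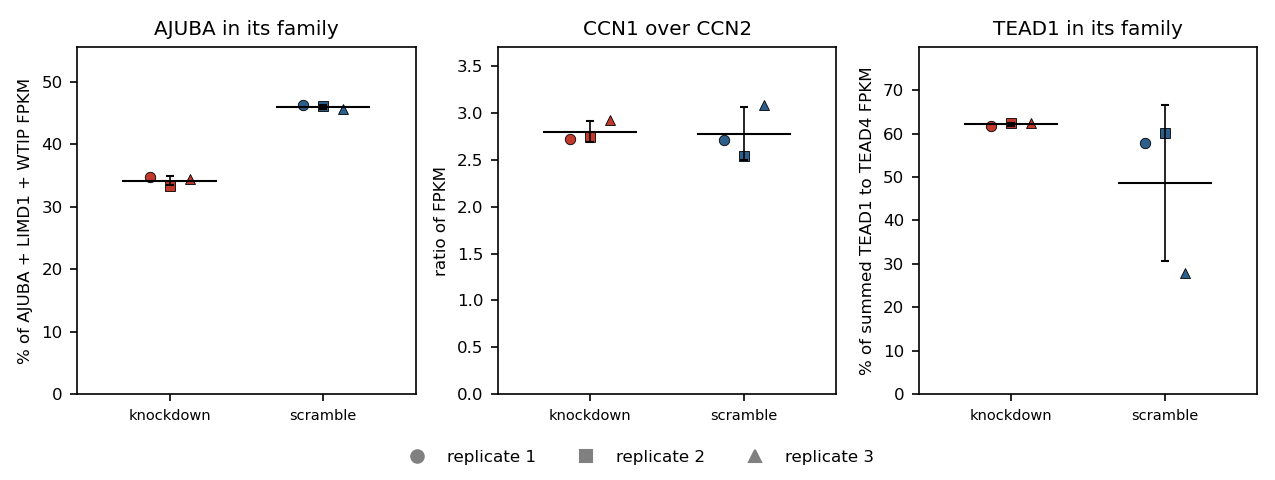
Quantities formed inside each library from FPKM, knockdown left and scramble right, with the mean as a bar and the SD as whiskers (n = 3): the share of AJUBA in the FPKM of AJUBA, LIMD1 and WTIP, the ratio of CCN1 to CCN2, and the share of TEAD1 in the FPKM of the 4 TEAD genes. The AJUBA share averages 34.2% in knockdown and 46.1% in scramble libraries, and the TEAD1 share of scramble replicate 3 is 27.8%.

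AMOTL2 and LATS2 are targets of YAP that act back on it, AMOTL2 as an angiomotin that holds YAP at junctions and LATS2 as the kinase that phosphorylates it. AMOTL2 had 135, 130 and 132 CPM in knockdown libraries and 145, 139 and 195 CPM in scramble libraries. All knockdown libraries were lower, but by little against scramble replicates 1 and 2. The log2 fold change of -0.27 (SE 0.17, adjusted p = 0.372) did not pass, nor did -0.10 (adjusted p = 0.0662) without scramble replicate 3. Adding a correction for GC content and length to the latter fit gave -0.14, which was called (adjusted p = 0.00939). LATS2 had 32.6, 32.1 and 29.6 CPM in knockdown libraries and 25.3, 28.7 and 24.2 CPM in scramble libraries. Here every knockdown library was higher, though knockdown replicate 3 and scramble replicate 2 lay close together. Its log2 fold change was 0.27 (SE 0.16, adjusted p = 0.328), and 0.22 (adjusted p = 0.0335) without scramble replicate 3. Adding a correction for GC content and length to the fit without that library ended that call (0.19, adjusted p = 0.0550). So 3 of the 5 targets CCN1, CCN2, ANKRD1, AMOTL2 and LATS2 were not called with all 6 libraries, and LATS2 differed in sign from CCN1 and CCN2.

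YAP1 had 78.7, 72.9 and 68.1 CPM in knockdown libraries, against 105, 108 and 53.0 CPM in scramble libraries. The knockdown libraries sat between scramble replicate 3 and the others, so the groups overlapped and the log2 fold change of -0.28 (SE 0.26, adjusted p = 0.565) did not pass. Set against scramble replicates 1 and 2 alone, YAP1 was lower in knockdown cells, at 68.7% of the remaining scramble mean (log2 fold change -0.54, SE 0.06, adjusted p = 5.12e-08). WWTR1 followed the same order. It had 177, 170 and 168 CPM in knockdown libraries and 226, 225 and 117 CPM in scramble libraries, with a log2 fold change of -0.14 (SE 0.24, adjusted p = 0.775) that became -0.39 (SE 0.04, adjusted p = 4.05e-08) without scramble replicate 3. The knockdown mean was then 76.2% of the scramble mean. Inside each library the ratio of WWTR1 to YAP1 FPKM was 2.37, 2.43 and 2.62 in knockdown libraries and 2.25, 2.19 and 2.34 in scramble libraries, so the groups did not overlap and YAP1 was the lower of the pair relative to WWTR1 in knockdown cells (exact permutation p = 0.1, 2-sided).

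TEAD1 was the most abundant TEAD gene per length (FPKM) in every library but scramble replicate 3. In CPM it had 413, 413 and 411 CPM in knockdown libraries, against 373, 390 and 141 CPM in scramble libraries. Every knockdown library was higher, by little over scramble replicates 1 and 2 (108% of their mean) and by far more over scramble replicate 3. Its log2 fold change reached 0.45 (SE 0.32, adjusted p = 0.437) with all 6 libraries and 0.11 (SE 0.03, adjusted p = 0.0110) without that library. TEAD4 had 29, 28.6 and 29.2 CPM in knockdown libraries and 27.7, 26.8 and 38.0 CPM in scramble libraries, and was not called either way (-0.09, adjusted p = 0.808, and 0.09, adjusted p = 0.394).

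Per length, TEAD1 held 61.7%, 62.4% and 62.4% of the summed FPKM of the 4 TEAD genes in knockdown libraries, against 57.9%, 60.1% and 27.8% in scramble libraries. TEAD4 came next, with 24.1%, 23.0% and 24.1% in knockdown libraries and 23.1%, 22% and 39.8% in scramble libraries. In scramble replicate 3, then, TEAD4 ranked above TEAD1. TEAD2 was at 15.4 ± 0.716 CPM in knockdown and 22.7 ± 4.19 CPM in scramble libraries (log2 fold change -0.55, adjusted p = 0.0840, and -0.39, adjusted p = 0.00231, without scramble replicate 3). TEAD3 was at 8.15 ± 0.379 and 11.3 ± 2.72 CPM in knockdown and scramble libraries (adjusted p = 0.185, and 0.125 without that library). Of the 6 coactivator and TEAD genes 0 were called by edgeR with all libraries. DESeq2 and limma-voom called 0 each, where they called 1889 and 1659 of all 14812 tested genes. An unadjusted edgeR p under 0.05 was found for 2 of the 6, and for 3763 of all 14812 tested genes. Over the 9 ratios and shares formed inside libraries, 3 libraries against 3 cannot give an exact permutation p under 0.1.

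**Figure D3:**
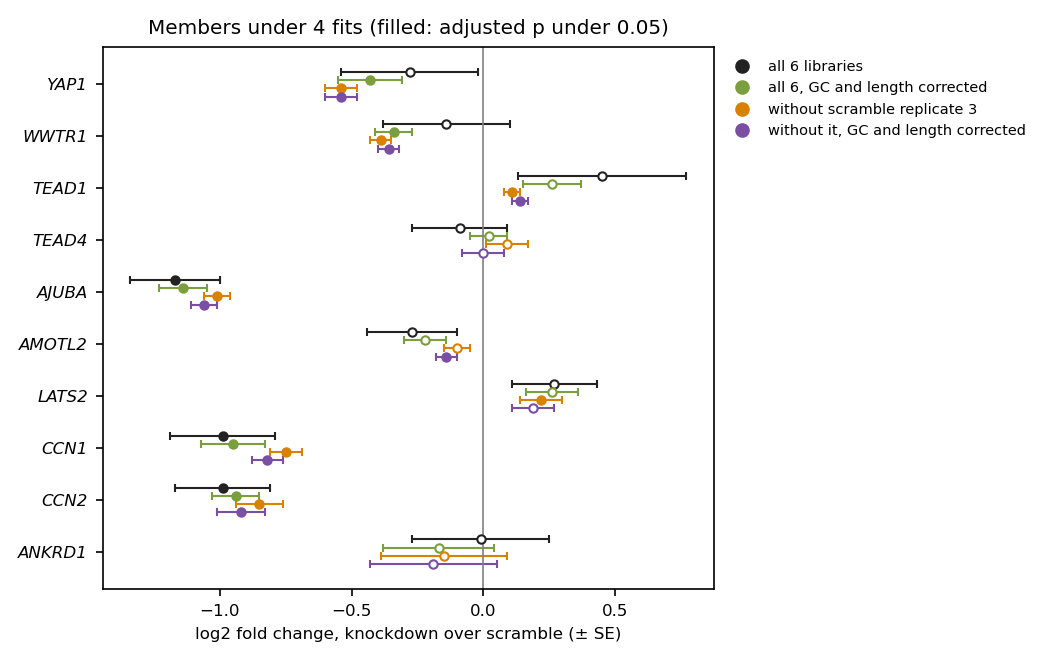
Log2 fold change of each member, knockdown over scramble, with its SE, under 4 fits: all 6 libraries, all 6 with a correction for GC content and length, without scramble replicate 3, and without it with the correction. Filled points have an adjusted p under 0.05. CCN1, CCN2 and AJUBA are lower under all 4, YAP1 and WWTR1 under the 3 that correct for or leave out scramble replicate 3.

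Without scramble replicate 3, 5 of the 10 members were called lower (YAP1, WWTR1, CCN1, CCN2 and AJUBA) and 2 higher (TEAD1 and LATS2). In that comparison 49.5% of 15029 tested genes were called, 23.8% lower and 25.7% higher, since the replicate coefficient of variation was 2.97% there, against 18.9% with all libraries. The median over the members was -0.27, and 0.00 over all genes. Differences as small as the 0.11 of TEAD1 passed against that spread. In 6 of the 10 members all 3 knockdown libraries lay on 1 side of all 3 scramble libraries, lower for CCN1, CCN2, AJUBA and AMOTL2 and higher for TEAD1 and LATS2. This was so for 37.0% of all tested genes, 18.6% lower and 18.4% higher.

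Scramble replicate 3 lay under the other scramble libraries in the members low in GC. YAP1, WWTR1 and TEAD1 transcripts had 43.5%, 40.9% and 41.3% GC and mean lengths of 5330, 5067 and 9433 bases, and scramble replicate 3 lay 1.01, 0.94 and 1.43 under the mean of scramble replicates 1 and 2 on the log2 scale for them. The GC bins nearest to them had median shifts of -0.66, -0.91 and -0.91. CCN1, CCN2 and AJUBA had 50.3%, 51.5% and 52.8% GC and were 0.61, 0.37 and 0.42 higher in that library, where the nearest bins had median shifts of 0.33, 0.33 and 0.44. LATS2, at 51.8% GC, did not follow its bin, with a shift of -0.15 where the nearest bin had 0.33. A correction for GC content and length with all 6 libraries gave log2 fold changes of -0.43 for YAP1 (adjusted p = 0.0228), -0.34 for WWTR1 (0.00545), -0.95 for CCN1 (0.000490), -0.94 for CCN2 (0.000151) and -1.14 for AJUBA (4.39e-05). Thus 5 members were called lower, where 18.7% of 14449 genes were (33.7% in either direction, 15.1% higher). With that correction and scramble replicate 3 left out, 6 were lower and 1 higher, where 50.6% of 14651 genes were called (26.8% lower, 23.7% higher). For YAP1 and WWTR1 this rests on GC read from the transcript nearest in length. With GC averaged over matched transcripts, which gave 48.2% and 53.7%, they were at -0.34 (adjusted p = 0.221) and -0.14 (0.701).

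**Figure D4:**
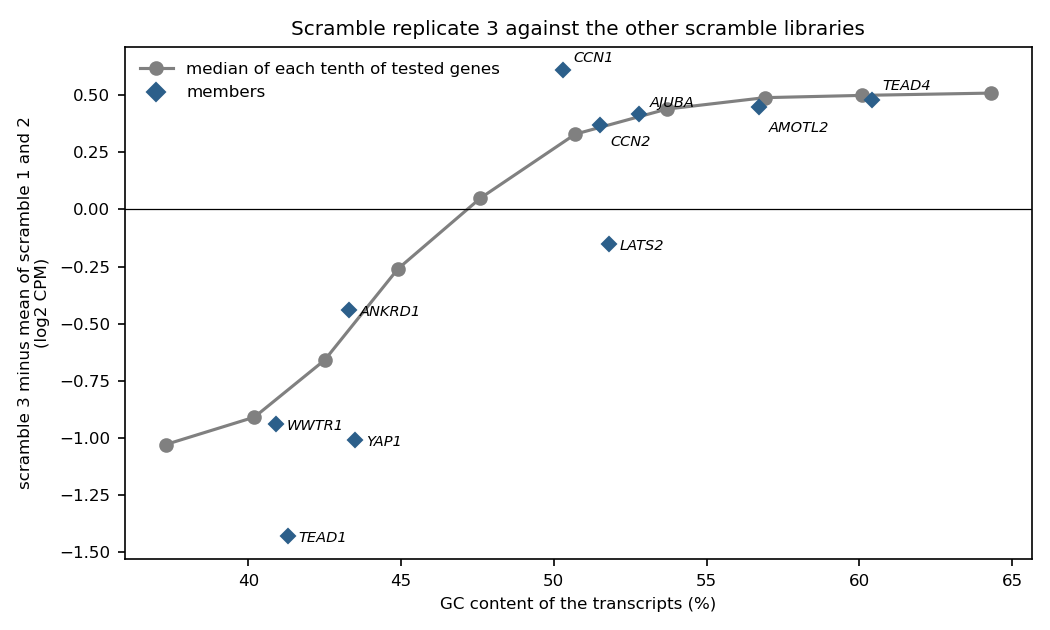
Scramble replicate 3 minus the mean of the other scramble libraries (y axis, log2 CPM) against GC content of the transcripts (x axis, %), for the 10 members (diamonds) and as medians over 10 GC bins of 14449 tested genes (grey line). TEAD1, YAP1 and WWTR1 lie lowest, at -1.43, -1.01 and -0.94, and CCN1 highest, at 0.61.

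Levels of different members can be set side by side per length. In knockdown cells FPKM ran from TEAD1 (42.2 ± 0.0503) and WWTR1 (32.8 ± 0.779) over AMOTL2 (25.6 ± 0.452), CCN1 (19.8 ± 0.884), AJUBA (16.7 ± 1.19), TEAD4 (16.1 ± 0.454) and YAP1 (13.3 ± 0.972) to CCN2 (7.07 ± 0.5), LATS2 (5.47 ± 0.267) and ANKRD1 (1.67 ± 0.367; SD, n = 3). AJUBA and TEAD4 did not differ beyond their spread, and the other neighbours did not overlap. In scramble replicates 1 and 2 the mean FPKM were 46.2 for WWTR1, 41.8 for TEAD1, 36.2 for AJUBA, 35.7 for CCN1, 29.4 for AMOTL2 and 20.8 for YAP1, with AJUBA and CCN1 overlapping, so AJUBA and CCN1 stood above AMOTL2 there and under it in knockdown cells. Mean transcript lengths, which move when isoform usage shifts, overlapped between groups for the members with several isoforms, at 5266 to 5378 and 5297 to 5373 bases for YAP1 and 4049 to 4152 and 4038 to 4167 bases for AJUBA in knockdown and scramble libraries.

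The genes most like a member across the 6 libraries were sought by the root mean square distance of centred log2 CPM, among 11764 tested genes averaging 5 CPM or more. Among the nearest to YAP1 were DGKH (0.033) and PGGT1B (0.049), where the median gene lay at 0.471, and WWTR1 ranked 21 at 0.079. Nearest to CCN1 were GALNT14 (0.029), CHAC1 (0.036) and C19orf12 itself (0.041), with a median of 0.572. CCN2 was nearest to CTIF (0.030), CDK20 (0.052) and PER1 (0.053), and CCN1 ranked 33 from it at 0.089. The distance is a description over 6 libraries, and includes the shift of scramble replicate 3.

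The wider pathway was read from 11 lists with 117 genes in all, members included and each counted once, of which 106 were tested. Of these 14 were called higher and 13 lower with all 6 libraries (median log2 fold change -0.01), where 5.89% of all tested genes were called higher and 5.64% lower. These shares are the background for each list count with all 6 libraries below. The lists too were chosen with earlier results of these data known, so the shares test none of them. Of the 24 called genes that are no member, 15 were called in each fit that left out 1 library. No such count was made over all genes, so the 15 has no matched background. Of all 1708 genes called with 6 libraries, 719 stayed called without knockdown replicate 3, the fewest in these fits. Values for the named genes follow from the inhibitors to the targets.

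**Figure D5:**
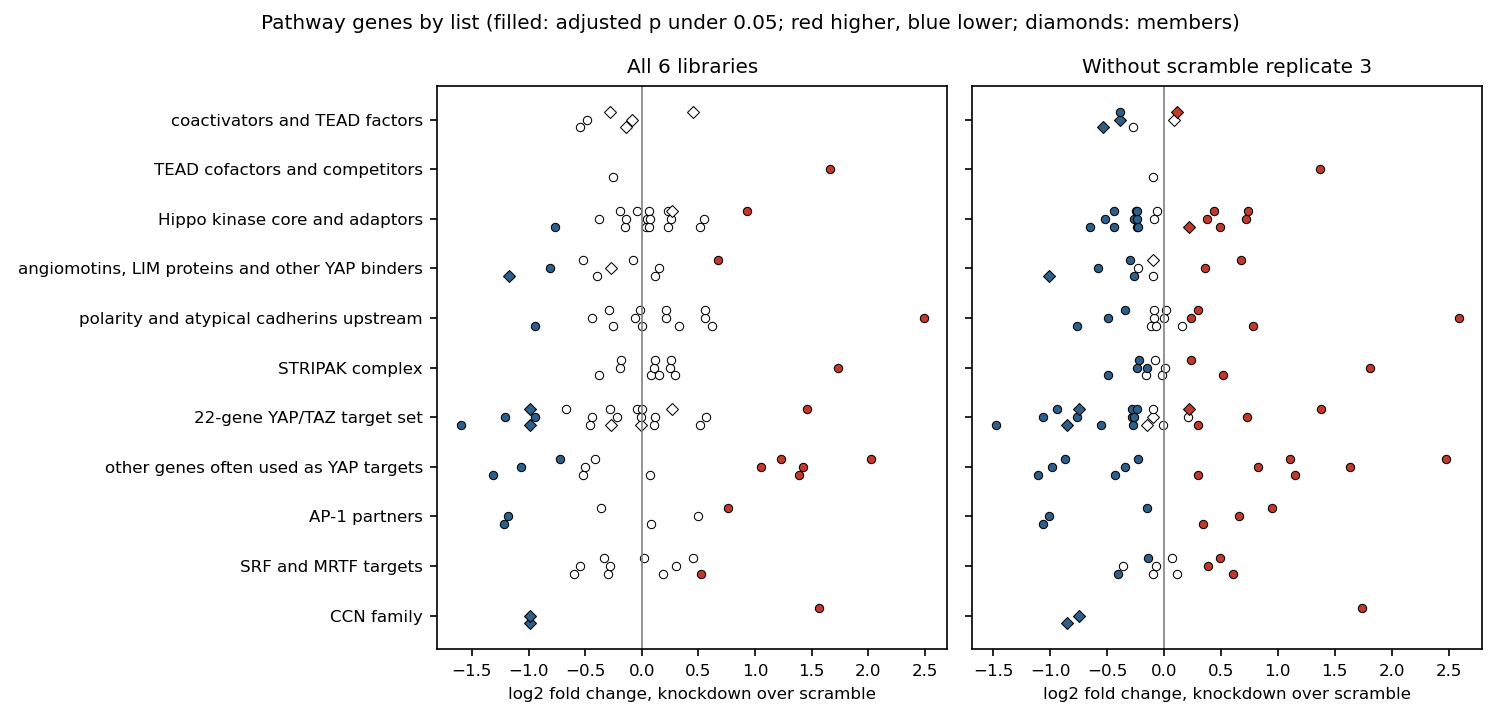
Log2 fold change, knockdown over scramble (x axis), of every tested gene of 11 lists (rows), with all 6 libraries (left) and without scramble replicate 3 (right). Filled points have an adjusted p under 0.05, red higher and blue lower, and diamonds mark members. CCN1 and CCN2 sit near -0.99 and CCN5 at 1.56 in the CCN family, and both signs occur in the lists of targets.

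Of the 4 vestigial-like cofactors, which compete with YAP for TEAD factors, VGLL3 rose. It had 22, 24.1 and 22.9 CPM in knockdown libraries, against 8.82, 9.00 and 3.87 CPM in scramble libraries (log2 fold change 1.66, SE 0.28, adjusted p = 0.00510, and 1.37 without scramble replicate 3). No scramble library reached 10 CPM. VGLL4 was at 46.2 ± 1.46 CPM in knockdown and 55.0 ± 9.28 CPM in scramble libraries (adjusted p = 0.411, and 0.195 without scramble replicate 3). VGLL1 and VGLL2 were listed in no library, and a count of 0 allows up to 3 counts, or 0.3 CPM in the library with the highest limit.

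Among 18 genes of the Hippo kinase core and its adaptors, 1 rose and 1 fell. TAOK3, a kinase that activates MST1 and MST2, rose to 21.2 ± 1.73 CPM in knockdown libraries, against 11.1 ± 2.84 CPM in scramble libraries (log2 fold change 0.93, adjusted p = 0.0210). WWC3, of the KIBRA family of LATS activators, fell to 125 ± 2.75 CPM in knockdown libraries, against 213 ± 31.1 CPM in scramble libraries (-0.77, adjusted p = 0.0124). Both calls were lost without knockdown replicate 1, 2 or 3, with adjusted p of 0.0685, 0.0886 and 0.108 for TAOK3 and 0.0830, 0.0933 and 0.0884 for WWC3. SAV1, the scaffold of MST1 and MST2, was at 29.3 ± 1.67 CPM in knockdown and 20.6 ± 1.74 CPM in scramble libraries (adjusted p = 0.0706). TAOK2 was at 83.5 ± 0.937 and 57.1 ± 11.3 CPM (adjusted p = 0.0792). In the fit without scramble replicate 3 TAOK3 was at 0.74 (6.95e-06), WWC3 at -0.65 (2.43e-11), SAV1 at 0.44 (0.000174) and TAOK2 at 0.72 (7.52e-10), all called by edgeR's adjusted p in parentheses. The list then had 6 higher and 10 lower, where 25.7% of all tested genes were called higher and 23.8% lower.

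In the list of angiomotins, LIM proteins and proteins that bind YAP, 1 of 9 tested genes rose and 2 fell, AJUBA and WTIP. AMOTL1, the angiomotin related to AMOTL2, rose. It had 153, 152 and 153 CPM in knockdown libraries, against 96.5, 94.2 and 96.4 CPM in scramble libraries (log2 fold change 0.67, SE 0.14, adjusted p = 0.0125). Scramble replicate 3 did not stand apart here, and without it the value was 0.68. Left without scramble replicate 2 or knockdown replicate 1, 2 or 3, the gene missed the threshold (adjusted p = 0.0543, 0.0964, 0.0968 and 0.0963). AMOTL1 and AMOTL2, at 0.67 and -0.27, thus had opposite signs. TRIP6, a LIM protein related to zyxin, was at 20.6 ± 2.03 CPM in knockdown and 29.6 ± 7.16 CPM in scramble libraries (adjusted p = 0.145, and 0.0106 at -0.30 without scramble replicate 3).

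Of 14 tested polarity and atypical cadherin genes 1 rose and 1 fell. CRB3, a Crumbs protein of the apical membrane, rose to 6.21 ± 1.09 CPM in knockdown libraries, against 1.1 ± 0.231 CPM in scramble libraries (log2 fold change 2.49, adjusted p = 0.000458). The scramble values of 0.836, 1.21 and 1.26 CPM rest on few counts, since 3 counts are 0.278 to 0.291 CPM there. The size of the change is therefore uncertain. With no filter on low counts edgeR gave 2.49 (adjusted p = 0.000115). FJX1, the human counterpart of the fly kinase four-jointed, fell to 10.8 ± 0.678 CPM in knockdown libraries, against 20.9 ± 4.39 CPM in scramble libraries (-0.94, adjusted p = 0.0129, and 0.0632, 0.0838 and 0.0738 without knockdown replicate 1, 2 or 3). PARD3 (136 ± 0.890 CPM in knockdown and 185 ± 9.82 CPM in scramble libraries, adjusted p = 0.0715) and LLGL2 (79.1 ± 6.0 and 53.7 ± 13.4 CPM, adjusted p = 0.107) did not pass. With scramble replicate 3 left out all were called, CRB3 at 2.59 (adjusted p = 1.05e-07), FJX1 at -0.76 (7.05e-06), PARD3 at -0.49 (2.13e-09) and LLGL2 at 0.78 (2.25e-09). Of 11 genes of STRIPAK, a phosphatase complex that acts against MST1 and MST2, 1 was called. This was STRIP2, with 23.5, 18.6 and 18.5 CPM in knockdown libraries, against 4.37, 7.15 and 6.68 CPM in scramble libraries (1.73, SE 0.22, adjusted p = 0.00121). STRN4 (adjusted p = 0.269) and PPP2CA (0.276) were the uncalled genes nearest to the threshold. Leaving out scramble replicate 3 gave 1.81 for STRIP2 (adjusted p = 4.91e-09), -0.15 for STRN4 (0.0240) and 0.24 for PPP2CA (0.000106).

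A set of 22 genes that respond to YAP and TAZ in many cancer types had 21 tested, of which 5 fell and 1 rose (median log2 fold change -0.22). Of the 16 tested that are no member, 3 fell and 1 rose, and their median was -0.13. GADD45A, a stress-induced growth arrest protein, had 36.1, 33.1 and 33.3 CPM in knockdown libraries, against 96.1, 94.6 and 119 CPM in scramble libraries (-1.6, SE 0.16, adjusted p = 0.000368). AXL, a receptor tyrosine kinase, had 188, 175 and 172 CPM in knockdown libraries, against 375, 368 and 491 CPM in scramble libraries (-1.21, SE 0.16, adjusted p = 0.00155). In both genes the groups were far apart, and FJX1 above was the third to fall. F3, the coagulation tissue factor, went the other way and rose to 7.61 ± 0.899 CPM in knockdown libraries, against 2.76 ± 1.11 CPM in scramble libraries (1.46, adjusted p = 0.00939). IGFBP3 (4198 ± 27.3 CPM in knockdown and 2945 ± 709 CPM in scramble libraries, adjusted p = 0.0908) and NUAK2 (80.8 ± 1.15 and 110 ± 20.5 CPM, adjusted p = 0.135) did not pass. Leaving out scramble replicate 3 gave -1.48 for GADD45A (adjusted p = 4.94e-15), -1.06 for AXL (1.33e-15), 1.38 for F3 (4.4e-05), 0.73 for IGFBP3 (1.03e-16) and -0.28 for NUAK2 (7.55e-05). In that fit 12 of the 21 were lower and 4 higher, where 23.8% and 25.7% of all tested genes were.

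Other genes often read as YAP targets split by direction, with 5 of 12 higher and 3 lower, where 5.89% and 5.64% of all tested genes were. AREG, an EGF receptor ligand, fell to 117 ± 6.14 CPM in knockdown libraries, against 246 ± 28.1 CPM in scramble libraries (log2 fold change -1.07, adjusted p = 0.00205). TGM2, a transglutaminase that crosslinks matrix proteins, rose to 1816 ± 26.6 CPM in knockdown libraries, against 678 ± 158 CPM in scramble libraries (1.42, adjusted p = 0.000997), and THBS1, a matricellular thrombospondin, rose to 41.2 ± 2.43 CPM in knockdown libraries, against 17.5 ± 2.76 CPM in scramble libraries (1.23, adjusted p = 0.00218). Further called genes, ITGB2 (2.02, adjusted p = 0.00308), COL4A3 (1.39, 0.00581) and CAVIN2 (1.05, 0.0164) higher and AMIGO2 (-0.72, 0.0230) lower, were named after their values were seen. ITGB2 had only 0.929, 1.21 and 2.32 CPM in scramble libraries, so the size of its change rests on few counts. With no filter on low counts edgeR gave 2.02 for it (adjusted p = 0.00122). The CAVIN2 call was lost without knockdown replicate 1, 2 or 3 (adjusted p = 0.0787, 0.0647 and 0.0671), and the AMIGO2 call without any library other than scramble replicate 3 (0.0734 to 0.137). EDN1 (-0.50, adjusted p = 0.0592) and MYC (-0.52, adjusted p = 0.0877) did not pass. Set against scramble replicates 1 and 2 alone, values were -0.98 for AREG, 1.63 for TGM2, 1.11 for THBS1, 2.48 for ITGB2, 1.15 for COL4A3, 0.83 for CAVIN2, -0.87 for AMIGO2, -0.43 for EDN1 and -0.34 for MYC, all called (highest adjusted p 1.58e-06).

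Of the AP-1 genes, whose products bind near TEAD factors, 2 fell and 1 rose among 6 tested. JUN had 37.1, 34.2 and 34.3 CPM in knockdown libraries, against 70.8, 76.1 and 99.7 CPM in scramble libraries (log2 fold change -1.22, SE 0.18, adjusted p = 0.00243). FOSL1, which encodes FRA1, had 13.3, 12.7 and 11.9 CPM in knockdown libraries, against 26.1, 24.8 and 35.3 CPM in scramble libraries (-1.18, adjusted p = 0.00385). In both, every knockdown library lay lower than every scramble library. FOS rose to 12 ± 0.0422 CPM in knockdown libraries, against 7.09 ± 1.6 CPM in scramble libraries (0.76, adjusted p = 0.0355), a call lost without any library other than scramble replicate 3 (0.102 to 0.141). FOSL2 (232 ± 10.4 CPM in knockdown and 164 ± 30.3 CPM in scramble libraries, adjusted p = 0.0900) and JUNB (97.5 ± 7.13 and 125 ± 28.9 CPM, adjusted p = 0.276) did not pass. Leaving out scramble replicate 3 gave -1.06 for JUN (adjusted p = 6.67e-12), -1.01 for FOSL1 (1.66e-08), 0.95 for FOS (9.89e-06), 0.66 for FOSL2 (4.4e-11) and -0.15 for JUNB (0.0279).

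Genes of SRF and its MRTF coactivators, which share CCN1 and CCN2 as targets with YAP, had 1 of 10 tested higher. VCL, the focal adhesion protein vinculin, rose to 276 ± 7.04 CPM in knockdown libraries, against 192 ± 6.97 CPM in scramble libraries (log2 fold change 0.52, adjusted p = 0.0345), and the call was lost without any library other than scramble replicate 3 (0.0962 to 0.204). MRTFA was at 105 ± 3.97 CPM in knockdown and 159 ± 35.6 CPM in scramble libraries (adjusted p = 0.0667), and ACTA2 at 8.67 ± 1.44 and 12.7 ± 2.81 CPM (adjusted p = 0.145). With scramble replicate 3 left out VCL was at 0.49 (adjusted p = 6.6e-10), MRTFA at -0.40 (4.58e-07) and ACTA2 at -0.36 (0.0502).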

How the data were processed

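The deposited files list, per gene, RSEM expected counts (estimated counts, as deposited by the authors, not normalized), FPKM scaled by the authors for length and depth, per the file headers, and a mean transcript length. RSEM, Bowtie2, BWA and build hg19 are named, per the submitters' processing notes, with versions and roles not given in the sources. Genes at 0 are not listed and were set to 0. Symbols came from GRCh38.p14 annotation by Entrez ID (20727 matched, 97 not).

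Expected counts were rounded and tested with edgeR 4.0.16 in R 4.3.3: filterByExpr (minimum count 10, total 15), TMM, glmQLFit and glmQLFTest without covariates, Benjamini-Hochberg adjusted p under 0.05 over all 14812 genes. SE is the fold change over the square root of F. CPM are TMM-scaled, with the SD over 3 libraries as error. Counting limits cover counting error only.

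Alternatives were RLE and upper-quartile scaling, no filter, 1 CPM in 3 libraries, the replicate number as a block, DESeq2 1.42.0, limma-voom (3.58.1), each library left out, and offsets for GC content and length (splines with 5 degrees of freedom, GENCODE transcripts). For GC the transcript nearest in length was taken, a choice made after a fit with GC averaged over matched transcripts had been seen. Both are given. That averaged fit and the correction without scramble replicate 3 were chosen after seeing the data.

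Members and lists were chosen with earlier results of these data known. Named are C19orf12, the members, up to 4 called and 2 uncalled genes with the smallest p per list, and the 3 genes nearest to YAP1, CCN1 and CCN2, with a pseudocount of 0.5 CPM. Some genes that this rule selects are not reported here. Python 3.11.15, pandas 2.3.3, numpy 2.4.6 and matplotlib 3.10.9 were used.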

Additional observations from a re-analysis of the deposited data

How the results depend on the processing

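CCN1, CCN2 and AJUBA were called lower in all alternatives that kept the 6 libraries (RLE, upper-quartile, both filters, the replicate block, DESeq2, limma-voom and the GC and length corrections). With 1 library left out their log2 fold changes ran from -1.11 to -0.75, -1.09 to -0.85 and -1.26 to -1.01, and the AJUBA call alone held each time. The others ran from -0.54 to -0.12 (YAP1), -0.39 to 0.0 (WWTR1), 0.11 to 0.67 (TEAD1), -0.19 to 0.09 (TEAD4), -0.16 to 0.15 (ANKRD1), -0.37 to -0.10 (AMOTL2) and 0.22 to 0.34 (LATS2), with TEAD4 reversed at 0.09 without scramble replicate 3 and ANKRD1 at 0.13 without scramble replicate 1 and 0.15 without knockdown replicate 1. The GC and length correction newly called YAP1 (-0.43) and WWTR1 (-0.34), but neither passed with averaged GC (-0.34, adjusted p = 0.221, and -0.14, 0.701). It reversed TEAD4 (0.02, also 0.02 with averaged GC). With scramble replicate 3 left out as well it gave -0.54, -0.36, 0.14 for TEAD1, -0.14 for AMOTL2, all called, and 0.0 for TEAD4, while LATS2 (0.19, adjusted p = 0.0550) was not called there. Genes called numbered 4874 with the correction, 4899 with averaged GC, 7409 with scramble replicate 3 left out as well, and 729 to 7439 with 1 library left out. Called list genes numbered 57, 59, 84 and 16 to 79 in these fits, against 27. Higher genes made up 51.1% of calls with all libraries, 61.6% to 63.1% without a knockdown library and 44.7% with the correction. The cause was not tested. The labels do not say that replicate numbers pair the libraries. Deviations of same-numbered libraries from their group means correlated at -0.0239, -0.0181 and -0.0232. Scramble replicate 3 stood apart and enters the scramble mean, so these values cannot decide whether libraries were paired. The replicate block gave 1654 calls and changed no member's call (CCN1 -0.96, CCN2 -0.98, AJUBA -1.16), but VCL lost its call (adjusted p = 0.116). VCL also missed the threshold with upper-quartile scaling (0.0536) and with no filter (0.0505), and WTIP with limma-voom (0.0550).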
